A study of Homo sapiens with 4 samples.

Results

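Transforming growth factor beta (TGF-beta) signalling was followed through 9 genes: the ligand genes TGFB1 and TGFB2, the latent-complex gene LTBP1, the receptor genes TGFBR1 and TGFBR2, the signal transducers SMAD2, SMAD3 and SMAD4, and the corepressor gene SKIL. Regions were taken as theirs where the authors' annotation gave one of these symbols, and a gene with no such region counted as unmarked. The 9 genes stand among 19974 protein-coding genes of RefSeq, and they held 0 of 604 regions in testosterone-treated cells and 12 of 19110 in control cells. Whether SKIL and LTBP1 are bound or driven by SMAD3 in these cells was not measured.

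H3K27ac, the acetylated form of lysine 27 on histone H3, is found at promoters and enhancers in use. It was profiled by chromatin immunoprecipitation and sequencing in KGN, an established human granulosa tumor cell line. The treated cells received testosterone at 10 um (the unit as the labels write it) for 24 h, and the other cells are labelled control, with no vehicle named. Both were grown in DMEM-F12 with 10% fetal bovine serum, and all were of the 1 line. Each condition had 1 IP library and 1 input library, so the conditions were compared without replicates and without p-values. The depth of the testosterone IP, inferred from the caller's backgrounds, was 1.03 times that of the control IP. Of 13 granulosa markers, 0 had a testosterone region and 3 (FOXL2, NR5A1, INHBB) had a control region. FSHR, CYP19A1, AMH and STAR had none in either list, and of 9 markers of other cells 1 had a testosterone region (EPCAM) and 4 a control region (INSL3, GDF9, ZP3, EPCAM).

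TGF-beta ligands are secreted in a latent form that latent TGF-beta binding proteins tether to the extracellular matrix. The freed ligand binds the type II receptor TGFBR2, which phosphorylates the type I receptor TGFBR1, and this kinase in turn phosphorylates SMAD2 and SMAD3. They join SMAD4 and enter the nucleus, and the complexes bind DNA at short GTCT-type elements. There SKIL (SnoN) holds target genes down until it is degraded. In the ovary this pathway is known for effects on granulosa cell growth and differentiation.

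In testosterone-treated cells none of the 9 genes had a region, and in control cells 6 had at least 1: TGFB1, TGFBR2, SMAD2, SMAD3, SKIL and LTBP1. TGFB2, TGFBR1 and SMAD4 had none in either list. Over all protein-coding genes, 2.41% had a testosterone region and 48.2% a control region, and 41% had a control region within 1 kb of a gene start. Of the 9 members, 6 had a control region that close to a start. These were all of the marked members, and 8189 of the 9627 control-marked genes had one too. Among control-marked genes, 4.51% also had a testosterone region, and among the 8597 genes with 1 to 3 control regions, as the 6 members had, 3.27% did. A count of 0 of 6 stands close to these shares, so the loss of called regions at the members was not distinguishable from that over all genes.

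The testosterone list ended at a higher -log10 p than the control list, but at nearly the same -log10 q (1.31 against 1.32). Its weakest region had a -log10 p of 4.92, and 9 of the 12 member regions reached that value in control cells, while the second regions of TGFB1 (4.82), TGFBR2 (4.73) and SKIL (4.33) did not. The share of all control regions that reached it is not given here, so the count is not shown to be a trait of the members. Cut to the 604 of its 19110 regions with the highest -log10 p, the control list reached down to 25.2. No member was left among so few regions, since the highest member region (SMAD2) had 15.6. A gene without a testosterone region is therefore a gene below the caller's threshold, not one shown to lack the mark. The testosterone region nearest to any member lay 178.3 kb from SKIL, assigned to PHC3, and the next 213.8 kb from SMAD3, assigned to SMAD6. At TGFBR2, TGFB1, TGFBR1, LTBP1 and TGFB2 the gap ran between 837.9 and 4588 kb, and at SMAD2 and SMAD4, on chromosome 18, it was 38186 and 41407 kb.

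**Figure D1:**
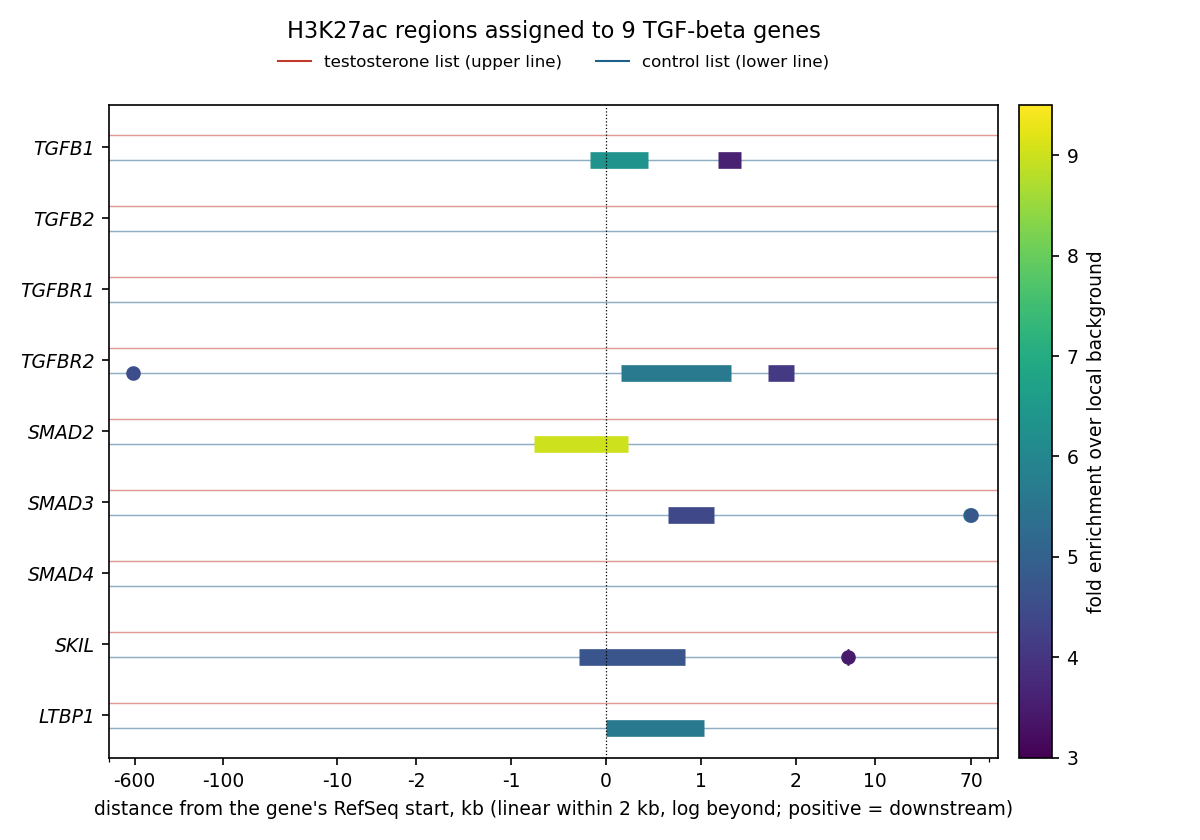
Regions of the 9 genes by distance from the RefSeq gene start (kb, linear within 2 kb and logarithmic beyond), with the testosterone list on the upper and the control list on the lower line of each gene, bars drawn to the width of the region, dots for regions beyond 5 kb and color for fold enrichment. The testosterone lines are empty, and 6 genes carry 12 control regions; the dot of SMAD3 near 70 kb stands for 2 neighboring regions.

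The promoter sequences on which these regions lie, or fail to lie, were read from RefSeq (GRCh38.p14). Each window holds 250 bases before a gene start and 50 from it on, and all 9 genes were matched, with 24 windows. The first 4 below are members with a control region over the window and the last 2 are the unmarked ligand and the unmarked common SMAD. Capitals mark CAGAC and its complement GTCTG, the core of the SMAD-binding element, searched on both strands, and each sequence runs 5′ to 3′ on the strand of its gene.
TGFB1, chr19:41353873-41354172, minus strand: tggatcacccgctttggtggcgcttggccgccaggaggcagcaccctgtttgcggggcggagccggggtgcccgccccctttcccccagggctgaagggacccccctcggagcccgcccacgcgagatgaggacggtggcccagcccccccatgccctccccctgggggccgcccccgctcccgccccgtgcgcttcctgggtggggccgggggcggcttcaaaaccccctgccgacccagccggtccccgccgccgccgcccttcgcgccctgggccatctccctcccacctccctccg
LTBP1, chr2:32946703-32947002, plus strand: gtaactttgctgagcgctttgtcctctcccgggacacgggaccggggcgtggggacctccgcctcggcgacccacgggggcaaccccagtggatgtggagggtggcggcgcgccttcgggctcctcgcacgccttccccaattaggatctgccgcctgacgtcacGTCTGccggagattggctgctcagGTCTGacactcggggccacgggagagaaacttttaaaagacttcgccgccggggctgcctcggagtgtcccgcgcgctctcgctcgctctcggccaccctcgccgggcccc
SMAD2, chr18:47930823-47931122, minus strand: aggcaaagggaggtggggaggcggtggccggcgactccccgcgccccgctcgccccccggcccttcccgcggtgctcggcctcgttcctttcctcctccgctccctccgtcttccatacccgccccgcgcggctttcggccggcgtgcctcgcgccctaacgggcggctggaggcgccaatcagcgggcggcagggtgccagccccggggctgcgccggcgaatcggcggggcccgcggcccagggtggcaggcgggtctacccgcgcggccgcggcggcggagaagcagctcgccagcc
SKIL, chr3:170357465-170357764, plus strand: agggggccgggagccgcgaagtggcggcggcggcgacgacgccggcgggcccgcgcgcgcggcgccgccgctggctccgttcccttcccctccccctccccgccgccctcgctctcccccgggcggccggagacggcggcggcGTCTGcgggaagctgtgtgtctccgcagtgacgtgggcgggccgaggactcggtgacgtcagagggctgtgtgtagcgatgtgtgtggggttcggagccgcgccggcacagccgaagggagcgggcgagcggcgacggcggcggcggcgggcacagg
TGFB2, chr1:218345086-218345385, plus strand: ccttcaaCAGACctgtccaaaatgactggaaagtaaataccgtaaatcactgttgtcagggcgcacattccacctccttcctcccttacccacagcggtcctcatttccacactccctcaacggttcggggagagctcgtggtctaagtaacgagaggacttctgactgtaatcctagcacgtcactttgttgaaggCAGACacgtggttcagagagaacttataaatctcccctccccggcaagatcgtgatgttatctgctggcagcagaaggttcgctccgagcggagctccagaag
SMAD4, chr18:51029963-51030262, plus strand: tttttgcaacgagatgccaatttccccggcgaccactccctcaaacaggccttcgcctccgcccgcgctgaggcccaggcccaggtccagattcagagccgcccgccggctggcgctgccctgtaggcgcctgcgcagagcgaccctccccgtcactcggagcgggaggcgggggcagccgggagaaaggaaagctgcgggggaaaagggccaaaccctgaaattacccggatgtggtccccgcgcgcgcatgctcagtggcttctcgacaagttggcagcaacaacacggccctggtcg

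TGFB1, the gene of a ligand made by many cell types, had 0 testosterone and 2 control regions. The stronger (chromosome 19, 41353478 to 41354090) was 613 bp wide and covered the gene start, with its summit 97 bp downstream of it. It held 26 IP fragments at the summit (exact Poisson 95% interval 16.98 to 38.1) at a fold enrichment of 6.34 over a local background of 2.9998, and a -log10 q of 10.8. This was the highest fragment count of the 12 regions and the second highest fold, above 75.5% of all control regions. The second region (41352495 to 41352738, 244 bp) began 1.17 kb downstream of the start, inside the gene, with 11 fragments (5.49 to 19.7) and a fold of 3.61. On the body of TGFB1 lay a further control region of 629 bp with 20 fragments and a fold of 6.59 that the annotation credits to TMEM91, whose start is 172 bp from it. Another region of 709 bp (fold 4.93), credited to CCDC97, lay 4555 bp outside the RefSeq gene. It sat in an intron of a longer annotated TGFB1 transcript.

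TGFB2, the other ligand gene, was unmarked in both lists. Its nearest control region was 1601 kb away, at EPRS, and its nearest testosterone region 4588 kb away. Its promoter window had 14 CpG dinucleotides, against a median of 21 over all protein-coding windows, and held 2 CAGAC matches, 243 and 53 bases upstream of the start.

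LTBP1 encodes the protein that tethers latent TGF-beta to the matrix. It had 0 testosterone regions and 1 control region (chromosome 2, 32946952 to 32947987), 1036 bp wide, with 14 fragments (7.65 to 23.5) and a fold of 5.63. The region began 1 bp upstream of the RefSeq start and ran downstream from it, so that it covered 51 of the 300 bases of the window printed above, and the 2 GTCTG matches of that window, 85 and 61 bases upstream, lay outside it. LTBP1 has 2 more RefSeq starts, at 33134369 and 33134596, in windows with 8 and 7 CpG. Neither window overlapped a region in testosterone or control cells.

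TGFBR2, the ligand-binding receptor kinase, had 0 testosterone and 3 control regions. That at its promoter (chromosome 3, 30606513 to 30607672) was 1160 bp wide, the widest of the 12, with 17 fragments (9.90 to 27.2) and a fold of 5.64. It covered 46% of the window of the start at 30606601 and none of that of the start at 30606356, and its summit lay 728 bp downstream of the annotated start. RefSeq also places the start of another gene, LOC105377015, within this region, so the mark there cannot be assigned to TGFBR2 alone. A second region (30608065 to 30608338) followed after a gap of 0.392 kb, with 8 fragments (3.45 to 15.76) and a fold of 4.07, the lowest count of the 12. The third (29984916 to 29985321) lay 621.2 kb upstream in an intron of RBMS3 and carries the symbol of TGFBR2 because that start is the nearest. It had 9 fragments (4.12 to 17.1) and a fold of 4.52, and whether it acts on TGFBR2 was not measured.

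TGFBR1, the receptor kinase that phosphorylates SMAD2 and SMAD3, was unmarked in both lists. RefSeq gives it 8 start windows with between 1 and 47 CpG, and none of them overlapped a region of either list. The nearest testosterone region lay 1106 kb and the nearest control region 67.2 kb from the gene, the control one at ALG2.

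SMAD2 had 0 testosterone regions and 1 control region, the strongest of the members by fold. It spanned 993 bp over the start (chromosome 18, 47930638 to 47931630), with 19 fragments (11.4 to 29.7), a fold of 9.004 and a -log10 q of 11.8. Its summit lay 281 bp upstream of the annotated start. The fold exceeded that of 93.7% of control regions and also the highest of the testosterone list (7.89), although each list is scaled to its own libraries. Its fragment count exceeded that of 59.8% of control regions, and its local background of 1.088 was close to the lowest of the list (1.087).

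SMAD3 had 0 testosterone and 3 control regions. The one at the promoter (chromosome 15, 67066261 to 67066743, 483 bp) did not cover the gene start. It began 416 bp downstream of the annotated start and 659 bp downstream of the RefSeq start, with 13 fragments (6.92 to 22.2) and a fold of 4.401. The other SMAD3 regions formed a pair inside the gene, 403 bp apart, 68.7 and 69.4 kb downstream of the RefSeq start. They had 14 fragments (7.65 to 23.5, fold 6.02) and 11 fragments (5.49 to 19.7, fold 4.77), and lay 3.40 and 2.61 kb upstream of the start of a shorter annotated transcript. The intervals of all 3 SMAD3 regions overlapped. None of the 5 RefSeq start windows of SMAD3 overlapped a region.

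SMAD4, the partner common to the receptor-activated SMADs, was unmarked in both lists. Its window had 28 CpG, the same count as that of TGFB1, and no CAGAC. The nearest control region was 61.8 kb away, at ELAC1. Among all protein-coding windows with 25 to 28 CpG, 45.7% (Wilson 95% interval 43.7 to 47.8) overlapped a control region, so an unmarked window of this kind was common.

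SKIL had 0 testosterone and 2 control regions. The promoter region (chromosome 3, 170357428 to 170358551) was 1124 bp wide and covered the start and the whole window printed above, with the summit 197 bp upstream of the start. It had 24 fragments (15.4 to 35.7), second to TGFB1, but a fold of 4.70, because its local background was 4.0004, above that of 89.0% of control regions. The second region (170363388 to 170363648, 261 bp), 2.18 kb downstream of a further annotated start, had 10 fragments (4.795 to 18.4), a fold of 3.46 and a -log10 q of 1.80, the lowest of the 12. Its summit stood 10 bp from its edge.

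**Figure D2:**
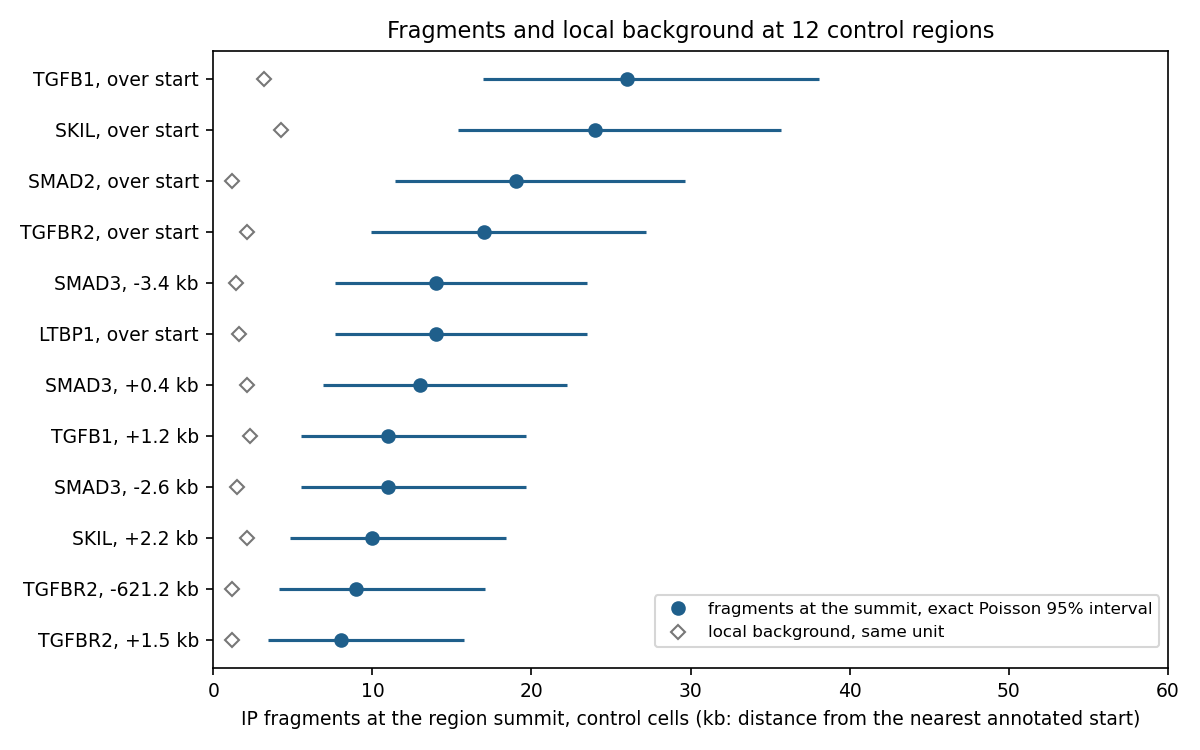
IP fragments at the summit of the 12 control regions (dots, with exact Poisson 95% intervals) and the local background in the same unit (diamonds), ordered by count, with each region's distance from the nearest annotated start. TGFB1 (26) and SKIL (24) lead by count, while the background is highest at SKIL and lowest at TGFBR2 and SMAD2; the testosterone list has no region to plot.

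The members were therefore ordered differently by count and by fold. By fold of the strongest region the order was SMAD2, TGFB1, SMAD3, TGFBR2, LTBP1 and SKIL, and by fragments TGFB1, SKIL, SMAD2, TGFBR2, then LTBP1 and SMAD3 with 14 each. The counting intervals of the 6 regions overlapped, so neighbors in the order of fragments were not told apart by counting error, and the fold has no interval of its own. Over the 12 regions, 1 pair of intervals was apart: the interval of the TGFB1 promoter region (from 16.98) began above the end of that of the weakest TGFBR2 region (15.76). The intervals cover counting error only, since 1 IP library per condition gives no spread between cultures. The fragments also carry no molecular identifiers.

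By their median, the 6 promoter regions were wide for their height, but this did not hold for each. The SMAD3 region (483 bp) was narrower than the median region near a start, and that of TGFB1 had 613 bp and the highest count. The median width of the 6 was 1015 bp, against 490 bp over the 10934 control regions within 1 kb of a start. Their median fragment count (18 against 19) and fold (5.63 against 5.40) were close to those of the same set. TGFBR2, SKIL, LTBP1 and SMAD2, with 1160, 1124, 1036 and 993 bp, lay in the widest 10% of the control list (over 984 bp), which held 13.5% of all regions near starts. The other 6 member regions had a median of 280 bp and 10.5 fragments. Of the 12 member regions, 6 (50%) had another control region within 1 kb, against 33.2% of all control regions. These 6 were the neighboring pairs at TGFB1, TGFBR2 and SMAD3, each pair counted from both sides. The strongest fold per gene had a median of 5.83 over the 6 members and 5.86 over 9627 control-marked protein-coding genes.

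**Figure D3:**
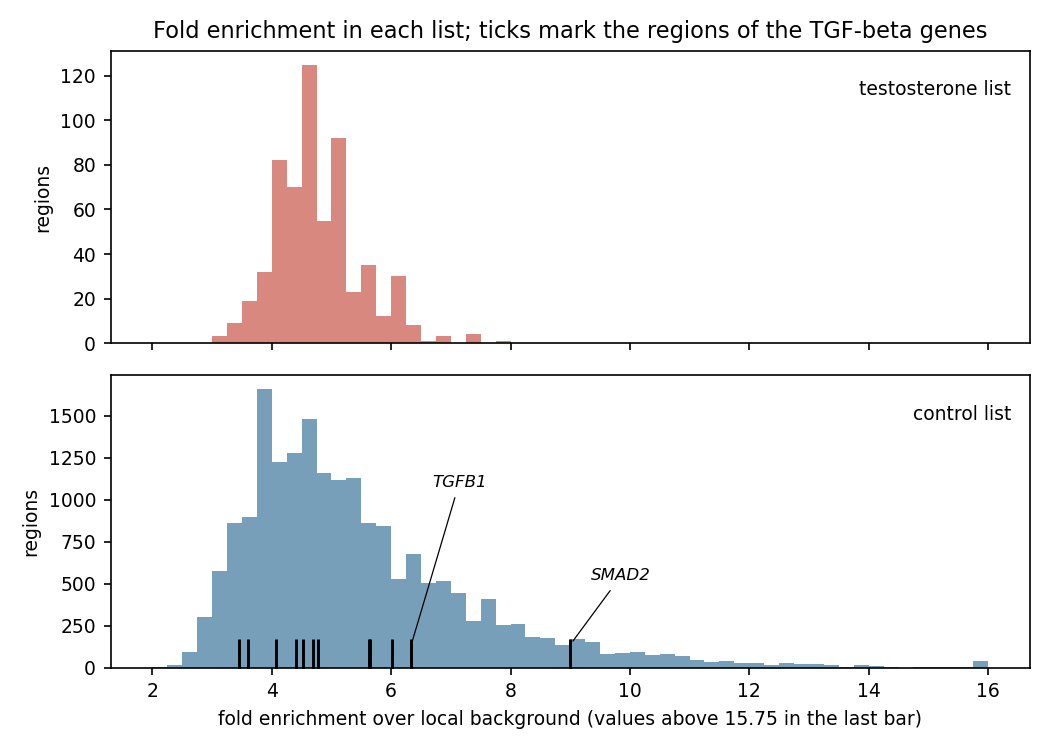
Number of regions by fold enrichment over the local background in the testosterone list (upper panel) and the control list (lower panel), each scaled by the caller to its own libraries. Ticks mark the 12 control regions of the members, which run between 3.46 and 9.004 (SMAD2); 5 of them lie above the control median of 4.99.

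All marked member windows had more CpG than the median of 21 over all protein-coding windows, but so did some unmarked ones. Over all 22132 protein-coding windows, 0.312% overlapped a testosterone region and 29.97% a control region, and the control share rose with CpG count, being 7.82% at 5 to 9 CpG and 48.8% at 39 or more. The 6 member windows that overlapped a control region had between 23 and 52 CpG. Windows with few CpG at the inner starts of LTBP1 and SMAD3 were unmarked, but so were windows at the SMAD3 start (44 CpG), at SMAD4 (28) and at TGFBR1 (47, 40, 40 and 30).

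**Figure D4:**
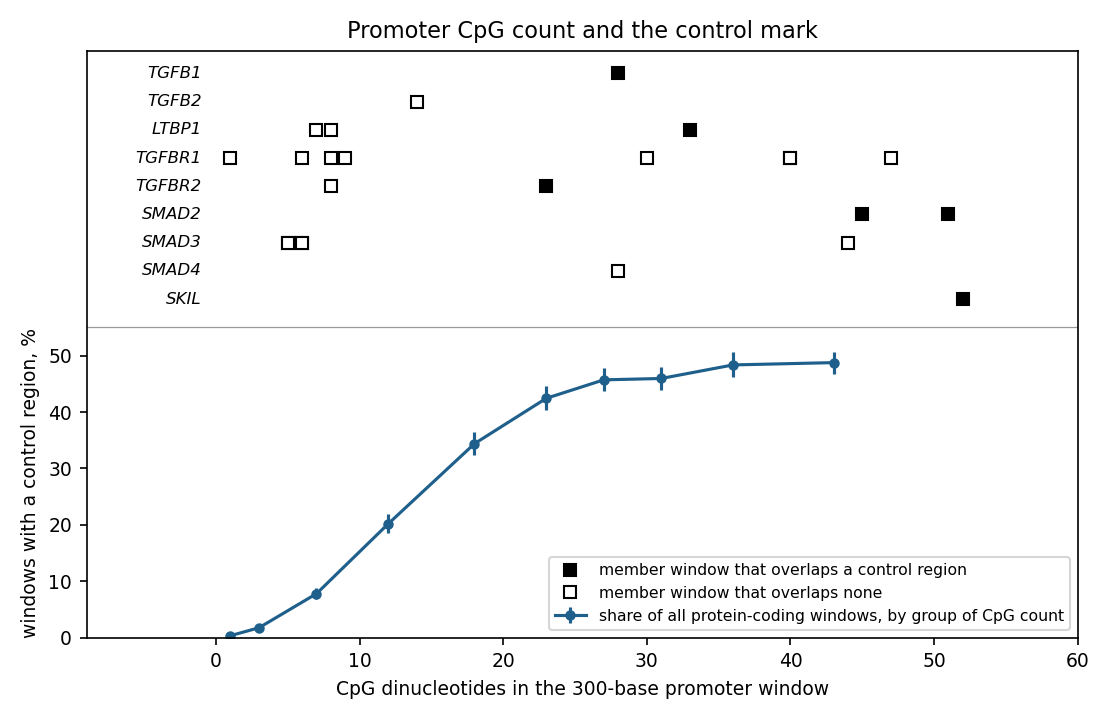
Lower part: share of protein-coding promoter windows that overlap a control region (%), with Wilson 95% intervals, by CpG count in the 300-base window. Upper part: the 24 windows of the members at their CpG counts, filled where a control region overlaps; 6 are filled, all with at least 23 CpG, and SMAD4, SMAD3 and TGFBR1 have open symbols in the same range. No member window overlaps a testosterone region.

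The SMAD-binding letters CAGAC or GTCTG occurred in 2 of the 6 marked member windows, those of LTBP1 and SKIL, and in 50% of all 24 member windows. Windows of 1 gene overlap one another at TGFBR1, TGFBR2, SMAD2 and LTBP1, and the 6 marked windows come from 5 genes, with 2 from SMAD2. Over all protein-coding windows the letters were less frequent where a control region overlapped (42.0%, Wilson 95% interval 40.8 to 43.2) than where none did (46.1%, 45.3 to 46.9), with 44.8% in all. In SKIL, a gene known for feedback induction by TGF-beta, the match lay 107 bases upstream of the start and inside the control region. A match is a run of letters, not a measured binding site.

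Around the members, 50 other genes of the pathway were counted. After testosterone 4 had a region and in control cells 39 did, 33 of them within 1 kb of a start. None of the testosterone regions of the 4 genes was that close to a start. Over all genes, 8189 of the 9627 control-marked ones had a control region within 1 kb of a start. Of all 604 testosterone regions, 31.8% lay that close, so neither count is shown to be a trait of the pathway. Beside the members' 0 of 9 and 6 of 9, the backgrounds are the same 2.41% and 48.2% of protein-coding genes. The list was drawn up with earlier results of these data known, so its share is not independent evidence about the pathway. The median fold of the strongest control region was 6.35 over the 39 marked genes.

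Genes for ligands, their storage and activation had a region in 1 of 10 cases after testosterone and in 9 of 10 in control cells. The highest control folds were those of LTBP3 (8.88) and LTBP4 (8.82), further latent-complex genes with 7 control regions each, against the single region of LTBP1. ITGAV, the integrin subunit that helps free latent TGF-beta, had 1 testosterone region (fold 3.61) 32.1 kb upstream of its start, 12434 bp from the nearest control region, and 6 control regions. Of 4 receptor and coreceptor genes, 0 had a testosterone and 1 a control region, the coreceptor gene TGFBR3 with a fold of 2.55. The kinase branch had 0 of 4 after testosterone and 4 of 4 in control cells, led by TRAF6 (6.34) and TAB2 (5.64).

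SMAD regulators had a region in 2 of 12 cases after testosterone and in 12 of 12 in control cells. USP15, a deubiquitinase that acts on the pathway, had the highest control fold (14.1), followed by TGIF1, a SMAD corepressor gene (11.2). The 2 genes with testosterone regions were SMAD6, an inhibitory SMAD, and TGIF1, with 3 testosterone regions each against 12 and 18 control regions. In the SMAD6 locus, next to SMAD3 on chromosome 15, 1 testosterone region (66707595 to 66707977, fold 5.01) overlapped a control region and the others lay 578 and 544 bp from one. At TGIF1 the testosterone folds were 4.37, 4.70 and 5.65, and the gaps to the nearest control region 1004, 1158 and 1225 bp. The share of all testosterone regions that overlap a control region is not given here. The overlap and the gaps are therefore not shown to be a trait of these loci. Of the 67 genes with 12 or more control regions, 41.8% had a testosterone region, as 2.44% of genes with 1 control region and 6.52% of those with 3 did.

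Of 20 genes known as SMAD3-induced targets, 1 had a testosterone region and 13 a control region. BHLHE40, a transcriptional repressor gene (15.3), and ZEB1, a driver of epithelial-mesenchymal transition (14.4), had the highest control folds, both above SMAD2, the strongest member. ACTA2, smooth muscle actin, was the 1 gene of the 50 with a testosterone region (fold 4.62, 9 fragments, 15.0 kb downstream of its start) and no control region. CCN2, TGFBI, COL1A1, COL1A2, FN1 and CDKN2B had no region in either list.

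**Figure D5:**
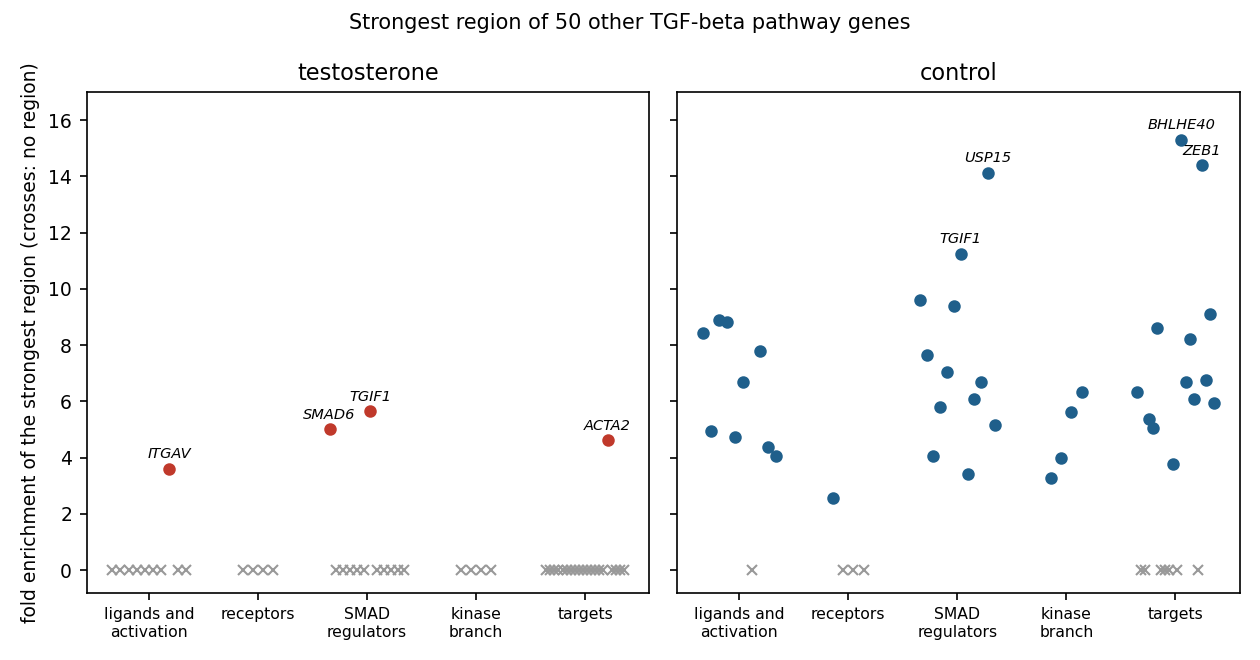
Fold enrichment of the strongest region of each of 50 pathway genes by group, in the testosterone list (left) and the control list (right); crosses at 0 are genes with no region. After testosterone ITGAV, SMAD6, TGIF1 and ACTA2 have a symbol, between 3.61 and 5.65, and in control cells 39 genes do, up to 15.3 at BHLHE40.

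Genes most like a member were sought among the 9193 control-marked genes with no testosterone region, by number of regions, summed width, highest fold and share of regions near a start, all from the 1 control library. For SMAD3 (3 regions, 1158 bp in sum, fold 6.02) they were SPEG, COMP and TMEM106C, at distances of 0.0466, 0.0971 and 0.124 SD units. For TGFBR2 (3 regions, 1840 bp) they were MGAT5, TRIM56 and TAB2, between 0.153 and 0.168. For TGFB1 (2 regions, 857 bp) they were PARP8, CDK20 and GARNL3, between 0.0314 and 0.0363, TGFB1 being taken before SKIL, which also had 2 regions, for its higher fold.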

How the data were processed

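Per the file headers and the submitters' processing notes, the authors called regions once per condition, 1 IP against its own input, with Bowtie2 2.0, MACS2, ChIPseeker and bedtools named; no source used here gives the caller's settings. The deposited pileup is a signal in fragments at the summit, the deposited fold enrichment is a ratio (pileup plus 1 over background plus 1), and significance was deposited as -log10 p and -log10 q, both read from their place in the testosterone table, where their headers were lost. Positions are on GRCh38.

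Local background was solved from the deposited fold and pileup, and is in the unit of the pileup. Testosterone pileups were whole and control pileups whole multiples of 0.937, within 0.00595 of a fragment, which gave fragment counts. IP depth was inferred from the lowest background and the shortest region. Of 488 testosterone and 9767 control symbols, 482 and 9627 matched a RefSeq protein-coding gene. No genome was used, so motifs were searched in RefSeq promoter windows in place of the regions that had been planned. Distances to a start are the authors' unless RefSeq is named.

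Members and lists were chosen with earlier results of these data known. The genes named were the 9 members, the 2 of highest control fold in each group of the pathway list, every pathway gene with a testosterone region, and 3 like genes for each of the 3 members with most regions; the pathway targets with no region, the neighbors of the members and the markers were named after their values were seen. The code was run on planted overlaps and motifs, which check only that the functions work, and on simulated Poisson counts (Python 3.11.15, pandas 2.3.3, scipy 1.17.1).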

Additional observations from a re-analysis of the deposited data

How the results depend on the processing

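No paired analysis was possible because each condition had 1 IP library. Of 25 values under alternatives, 6 could not move, being stricter limits or overlap rules applied to the members' 0 testosterone regions, and say nothing of stability. Of the other 19, 13 stayed within 1.5 times the main count and 6 moved. Assigned by position on the gene body within 1 kb, the members again had 0 testosterone regions. With the control list reduced to 604 of its 19110 regions, 0 members and 0 regions were left in control cells, in place of 6 and 12. With -log10 q limited to 5 or more, 6 of the 12 control regions were left, and they still belonged to all 6 members. With a window of 3 kb, 10 control regions lay near a start in place of 6. The share of marked member windows with SMAD letters was 33.3% for CAGAC, 83.3% for GTCT and 0% for CAGACA, where 42.0%, 80.1% and 10.4% of marked protein-coding windows and 46.1%, 83.9% and 17.2% of unmarked ones held them. Over all 24 member windows, 50%, 75% and 25% did. Depth limits the weaker regions: the lowest count called was 8 fragments in the testosterone and 7 in the control list, and the members' counts began at 8.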
